A study of Rattus norvegicus with 43 samples.

Results

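Trpv6 and S100g, the genes of the apical calcium channel and of the cytosolic calcium carrier of absorptive epithelium, were followed across the colonic mucosa of azoxymethane-treated rats fed 3 oils. They are 2 of the 5628 genes named on the array, and each has 1 probe among the 8452 on it. Both were tested, as were 4431 genes and 6381 probes in all. They were picked because their level at 10 wk lay below that at 12 h, so their time difference is given as a description without a test. The measurements that the choice did not use are the differences between oils at each time, the differences between oils in the size of the time difference, the relation of both genes among rats of 1 time, and the levels of other calcium pathway genes.

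The rats were male Sprague Dawley animals labelled as weanling, a word that cannot hold for the 10 wk rats at tissue collection. Tissue came from rats fed corn oil (5 rats), fish oil (4 rats) or olive oil (5 rats) at 10 wk, and from 5 rats per oil at 12 h. All received the colon carcinogen azoxymethane at 15 mg/kg, and no untreated rats or reference RNA were included. Sample labels give 10 wk or 12 h after injection, whereas the treatment protocol describes another injection for the late rats and an interval of 9 wk from it. Age, number of injections and time on the diet therefore differ between the time points together and cannot be told apart. RNA was hybridised to 43 arrays of 1 colour from the 29 rats, and 10 rats had repeat arrays that were averaged. Arrays differed between the times in spot area and local background, and the labels do not give the origin of this. The classes cut from these measures are called scan classes here, without knowing whether the scanner or the array lot differed. Arrays were sorted by local background and by median spot area into high background (75 or more), large spots (over 250 pixels), small spots (up to 220 pixels) and medium spots (the rest). At 10 wk there were 6, 2, 1 and 14 arrays of these classes, and at 12 h 0, 5, 12 and 3. A level is here the normalized intensity on the log2 scale, and an error beside a level is the SD between rats. Because mucosa was measured in bulk, fewer cells of a type and less RNA per cell cannot be told apart.

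Absorptive epithelial cells move calcium across themselves in 3 steps. It enters from the lumen through apical channels such as Trpv6, is carried through the cytosol by S100g, also called calbindin-D9k, and is extruded at the basolateral side by the pump encoded by Atp2b1. In the intestine the active form of vitamin D, acting through its receptor Vdr, is the best known inducer of Trpv6 and S100g, and the channel is expressed in large intestine as well as in duodenum. Vdr binds DNA with a retinoid X receptor partner at paired 6-base half-sites.

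Trpv6 is measured by a probe for transcript NM_053686 and lies on rat chromosome 4, and S100g by a probe for NM_012521 on chromosome X. The Trpv6 promoter is shown because a half-site of the type that nuclear receptors bind lies in it, and the capitals mark that half-site, AGGTCA. The sequence is from RefSeq on GRCr8, chr4:71489618-71489917 on the minus strand, and runs from 250 bases before to 50 bases after the annotated start.
Trpv6 promoter: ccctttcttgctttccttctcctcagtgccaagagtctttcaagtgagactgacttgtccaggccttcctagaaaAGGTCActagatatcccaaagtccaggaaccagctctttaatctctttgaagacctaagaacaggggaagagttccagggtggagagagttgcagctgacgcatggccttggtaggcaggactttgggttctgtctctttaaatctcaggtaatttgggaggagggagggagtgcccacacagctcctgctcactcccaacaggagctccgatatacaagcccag
The match starts at base 76 of the window, at position -175 from the start, and 16.2% of 33469 rat promoters of this length hold AGGTCA on either strand. The related half-site AGTTCA, found in 14.5% of promoters, and TTTATG, the core bound by the intestinal Cdx factors, found in 12.7%, had no match in the Trpv6 window on either strand. The paired half-site DR3, found in 0.0986% of promoters, had none either. The promoters of Atp2b1 and Vdr held none of the 4 motifs. These are letter matches in a window, not measured sites, and sequence outside the window was not searched. The S100g promoter was not analysed here.

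Trpv6 was far above the scanner's noise on every array. Its raw spot mean was 615 to 1995 at 10 wk and 1210 to 7635 at 12 h, which is 6.07 to 23.3 times the noise level at 10 wk and 15.0 to 87.0 times at 12 h. In corn oil rats at 10 wk its level was 9.84, 10.13, 10.14, 10.24 and 10.46, against 10.92, 11.33, 11.36, 11.67 and 12.00 at 12 h. In fish oil rats it was 9.86, 9.88, 9.88 and 10.01 at 10 wk, against 10.48, 11.07, 11.65, 11.76 and 11.81 at 12 h. In olive oil rats it was 9.91, 10.02, 10.02, 10.36 and 10.62 at 10 wk, against 10.71, 11.34, 11.64, 11.83 and 12.14 at 12 h. Within every oil the 10 wk rats lay wholly below the 12 h rats. Such a separation in that direction was shared by 3.48% of tested probes in corn oil, 4.89% in fish oil and 5.16% in olive oil rats, and nothing is read from this, since it was used in choosing the gene. Across oils the groups met at 1 point, since the highest late rat (olive oil, 10.62) lay above the lowest early rat (fish oil, 10.48), so that 13 of the 14 late rats lay below every early rat. Complete separation of the times in either direction occurred in 0.486% of tested probes.

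Averaged over oils, Trpv6 was 10.10 ± 0.24 at 10 wk (n = 14) and 11.45 ± 0.48 at 12 h (n = 15), a log2 difference of -1.36 (SE 0.14), or 2.57-fold. The difference was -1.29 (SE 0.24) in corn oil, -1.45 (SE 0.25) in fish oil and -1.35 (SE 0.24) in olive oil rats. Ranked by the averaged difference from the lowest, it stood 4th of 6381 probes, whose median was 0.00. The spread between rats of a group was 0.23 at 10 wk and 0.51 at 12 h. Early fish oil rats spanned 10.48 to 11.81, whereas late fish oil rats spanned 9.86 to 10.01.

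**Figure D1:**
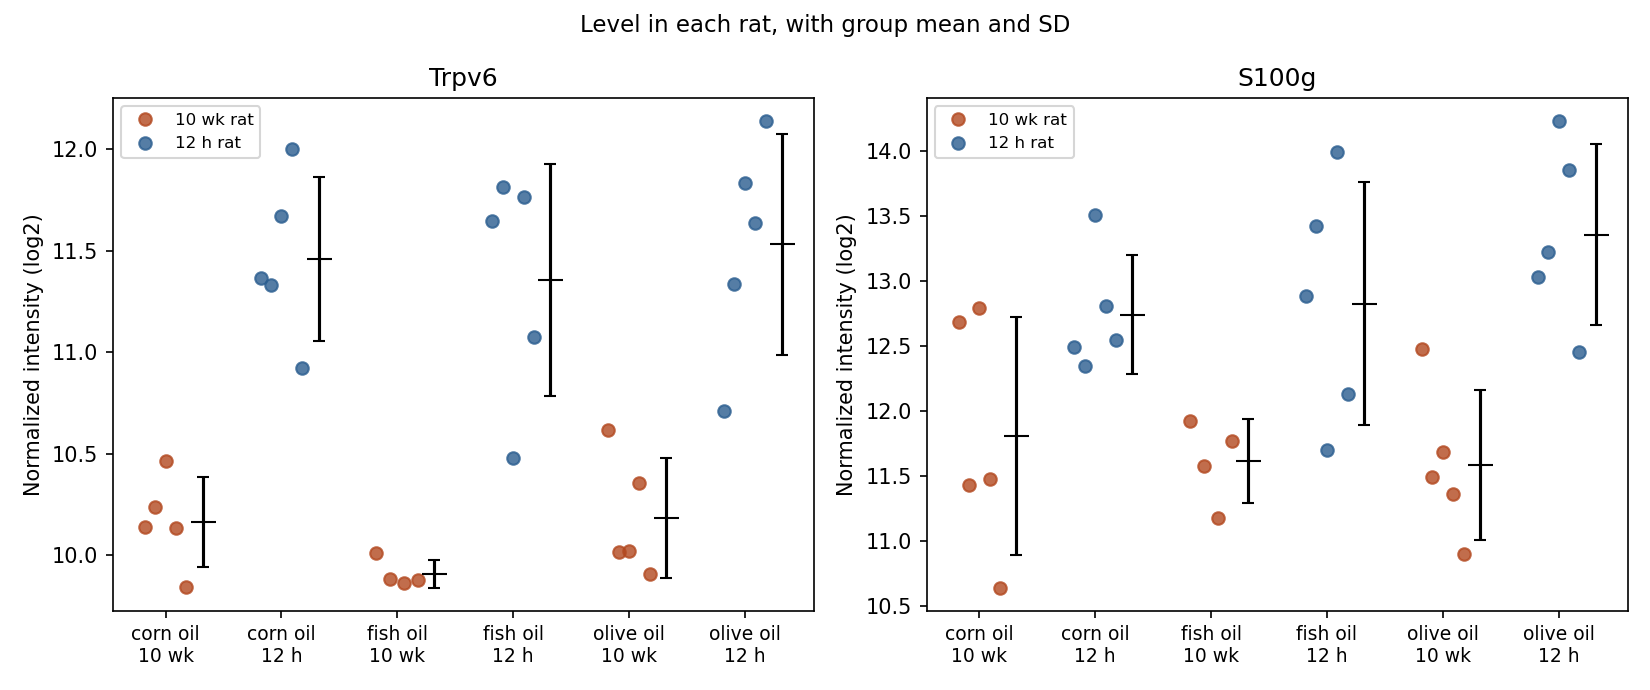
Level of Trpv6 (left) and S100g (right) in each rat, as log2 normalized intensity, by oil with 10 wk left of 12 h. Points are rats and the black bars are the group mean and SD. Trpv6 shows no overlap between times within an oil, and S100g overlaps in each oil.

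S100g was brighter over its own noise and more variable between rats. Its spot mean was 9.81 to 121 times the noise level at 10 wk and 22.9 to 273 times at 12 h. In corn oil rats at 10 wk its level was 10.64, 11.43, 11.48, 12.69 and 12.79, against 12.35, 12.49, 12.55, 12.81 and 13.51 at 12 h. In fish oil rats it was 11.18, 11.58, 11.77 and 11.93 at 10 wk, against 11.70, 12.13, 12.88, 13.42 and 13.996 at 12 h. In olive oil rats it was 10.90, 11.36, 11.49, 11.69 and 12.48 at 10 wk, against 12.45, 13.03, 13.22, 13.85 and 14.23 at 12 h. Late and early rats overlapped within each oil. Of the late rats, 3 of 5 fed corn oil, 2 of 4 fed fish oil and 4 of 5 fed olive oil lay below the lowest early rat of the same oil.

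Averaged over oils, S100g was 11.67 ± 0.63 at 10 wk (n = 14) and 12.97 ± 0.73 at 12 h (n = 15), a log2 difference of -1.31 (SE 0.24), or 2.47-fold. Every one of the 14 late rats was below the average of the early rats, and 9 of them were below the lowest early rat. The difference was -0.93 (SE 0.41) in corn oil, -1.21 (SE 0.44) in fish oil and -1.77 (SE 0.41) in olive oil rats. Its averaged difference stood 6th of 6381 probes from the lowest. The corn oil value was -1.28 with scan class as a term and -0.38 without the small-spot arrays.

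Both genes ranked every 10 wk group below every 12 h group, with another order of the oils within a time. From the lowest, Trpv6 averaged 9.91 ± 0.07 in fish oil, 10.16 ± 0.22 in corn oil and 10.18 ± 0.29 in olive oil rats at 10 wk, and 11.36 ± 0.57, 11.46 ± 0.40 and 11.53 ± 0.54 in the same order of oils at 12 h. The step between the times (1.17) and that between fish oil and corn oil at 10 wk (0.25) exceeded the larger SD of the neighbours, and the other 3 steps did not. S100g averaged 11.58 ± 0.58 in olive oil, 11.61 ± 0.32 in fish oil and 11.81 ± 0.92 in corn oil rats at 10 wk, and 12.74 ± 0.46 in corn oil, 12.83 ± 0.93 in fish oil and 13.36 ± 0.70 in olive oil rats at 12 h. The step between corn oil at 10 wk and corn oil at 12 h (0.93 against an SD of 0.92) was the 1 step of S100g that exceeded the spread. Ranges of all neighbouring groups overlapped for both genes.

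The oils were compared at each time, which addresses how diet modifies the expression signature at the early and late stages. Neither gene passed in any of the 6 pairs of oils, with limma's Benjamini-Hochberg adjustment over all 6381 probes. For Trpv6 at 10 wk, fish oil minus corn oil was -0.25 (95% interval -0.77 to 0.26, adjusted p = 0.798), olive oil minus corn oil 0.02 (-0.47 to 0.51) and fish oil minus olive oil -0.28 (-0.79 to 0.24). At 12 h the same differences were -0.10 (-0.59 to 0.39, adjusted p = 0.922), 0.07 (-0.42 to 0.56) and -0.18 (-0.66 to 0.31). The intervals therefore leave room for differences of up to 0.79 on the log2 scale between oils. They rest on 1 spread shared by all groups, although the SD between rats was 0.23 at 10 wk and 0.51 at 12 h. They are thus likely too wide at 10 wk and too narrow at 12 h.

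For S100g at 10 wk, fish oil minus corn oil was -0.19 (-1.09 to 0.70), olive oil minus corn oil -0.22 (-1.07 to 0.62) and fish oil minus olive oil 0.03 (-0.86 to 0.92). At 12 h these were 0.08 (-0.76 to 0.93), 0.62 (-0.23 to 1.46, adjusted p = 0.628) and -0.53 (-1.37 to 0.31, adjusted p = 0.798). The S100g intervals are wider, and the olive oil rats at 12 h, which hold the highest level (14.23), overlap the corn oil rats. Across all probes these oil comparisons gave few calls. Fish oil minus corn oil at 10 wk called 4 probes (0.0627%, all lower), and the other 5 pairs called 0, while 147 to 685 probes per pair lay under an unadjusted p of 0.05.

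The time difference was also compared between oils, which the choice of the genes did not fix. For Trpv6 the time difference in fish oil minus that in corn oil was -0.15 (-0.87 to 0.56, adjusted p = 0.989), olive oil minus corn oil -0.05 (-0.75 to 0.64) and fish oil minus olive oil -0.10 (-0.81 to 0.61). For S100g these were -0.28 (-1.51 to 0.95), -0.84 (-2.03 to 0.35, adjusted p = 0.795) and 0.56 (-0.67 to 1.79). The F test of oil by time gave adjusted p-values of 0.980 for Trpv6 and 0.938 for S100g, and by limma 0 probes passed in any of the 3 contrasts (221 to 358 at an unadjusted p under 0.05) or the F test. The larger S100g difference in olive oil rats thus did not pass.

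**Figure D2:**
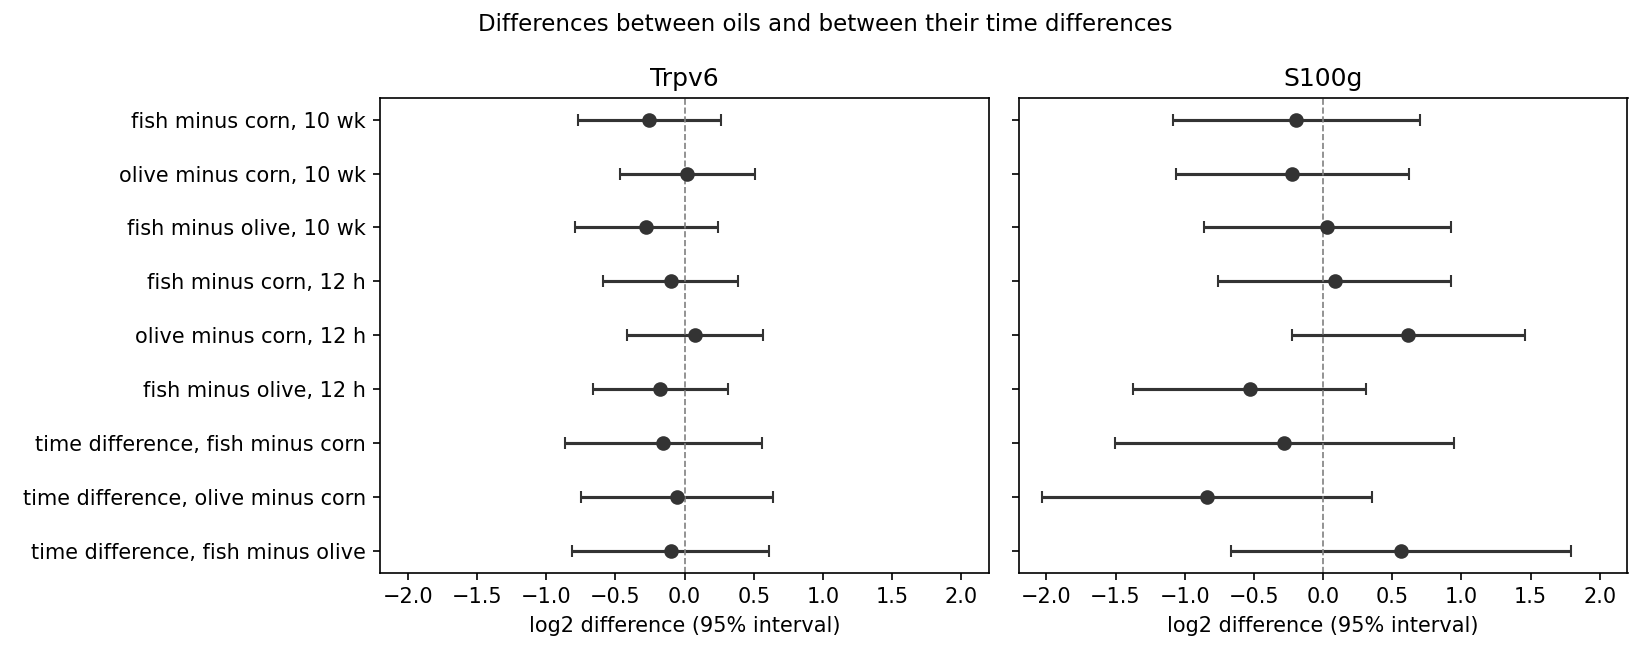
Differences between oils at 10 wk and 12 h and differences between oils in the 10 wk minus 12 h difference, for Trpv6 (left) and S100g (right), as log2 difference with 95% interval. Every interval includes 0, and those of S100g are wider than those of Trpv6.

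Among rats of the same time the channel and the carrier tended to be high together. At 10 wk Pearson's r was 0.64 (permutation p = 0.0188, adjusted over both times 0.0375) and Spearman's rho 0.51 (permutation p = 0.0665, adjusted 0.0856) over 14 rats. At 12 h r was 0.53 (permutation p = 0.0395, adjusted 0.0395) and rho 0.46 (permutation p = 0.0856, adjusted 0.0856) over 15 rats. The rank correlation thus passed at neither time. Without the 2 rats farthest from the median of Trpv6, r was 0.32 at 10 wk (permutation p = 0.327) and 0.43 at 12 h (permutation p = 0.142), neither past the threshold. With the oil means taken out, r was 0.72 at 10 wk and 0.54 at 12 h.

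**Figure D3:**
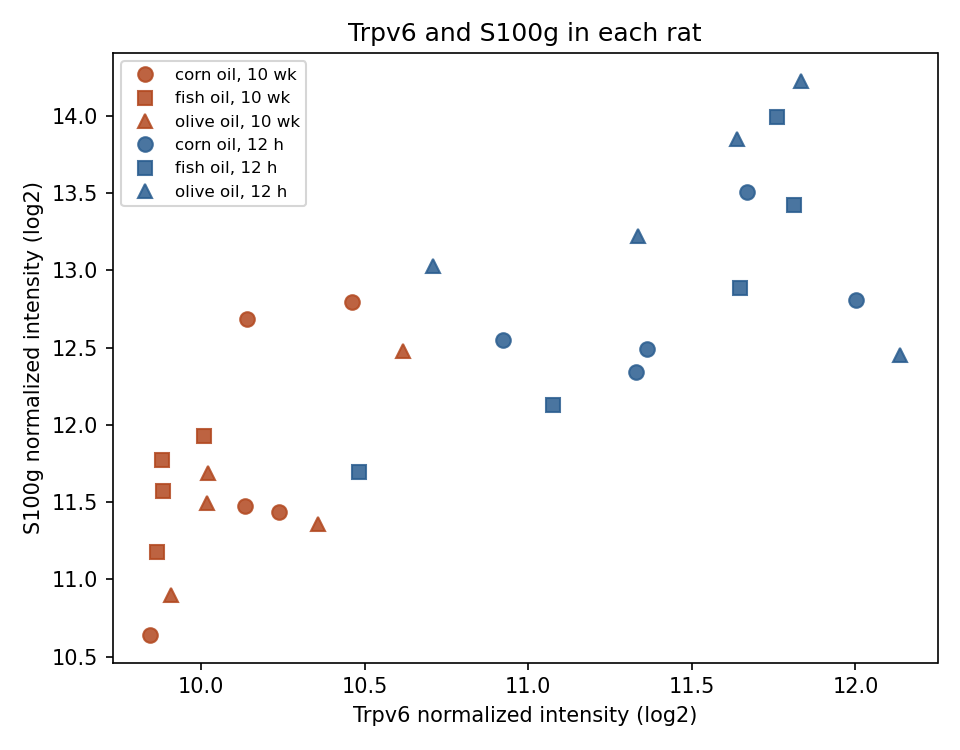
S100g against Trpv6 in each of the 29 rats, both as log2 normalized intensity, with colour for time and symbol for oil. Late rats fill the lower left and early rats the upper right, and within each time the rats low in one gene tend to be low in the other.

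Repeat arrays gave the scatter of the measurement, which the values of the rats also hold. In some rats the repeats were of different scan classes. Between repeat arrays of a rat the SD was 0.17 for Trpv6 and 0.46 for S100g, against 0.40 and 0.70 between rats of a group. The largest disagreement was S100g in a late corn oil rat, whose 4 arrays spanned 9.83 to 11.32, while its Trpv6 level spanned 9.70 to 9.97. S100g also spanned 12.85 to 13.99 on the 2 arrays of an early fish oil rat. Both rats had arrays of different scan classes, small spots and high background in the former and small and large spots in the latter. In rats whose repeats were of 1 class, the range of S100g was 0.06 to 0.70. On the high-background arrays of rat 236 it spanned 11.24 to 12.03. The part of scan class in this scatter was not tested.

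With scan class as a term the time difference was -1.30 (SE 0.16) for Trpv6 and -1.40 (SE 0.30) for S100g. Within medium spots (11 late and 3 early rats) Trpv6 differed by -1.15, with the highest late rat at 10.62 and the lowest early rat at 10.93, and S100g by -0.62 with overlap. Within large spots (2 and 4 rats) the differences were -1.11 for Trpv6 and -1.38 for S100g. Within small spots (1 and 11 rats) they were -1.54 and -3.04, where the late value rests on 1 array. S100g stood at 9.83 on that array, and the 4 arrays of the same corn oil rat spanned 9.83 to 11.32. Among the late medium-spot rats and the early small-spot rats (11 each), r between the genes was 0.51 and 0.56. Spearman's rho was 0.38 and 0.40 in the same rats, and neither measure was tested there.

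**Figure D4:**
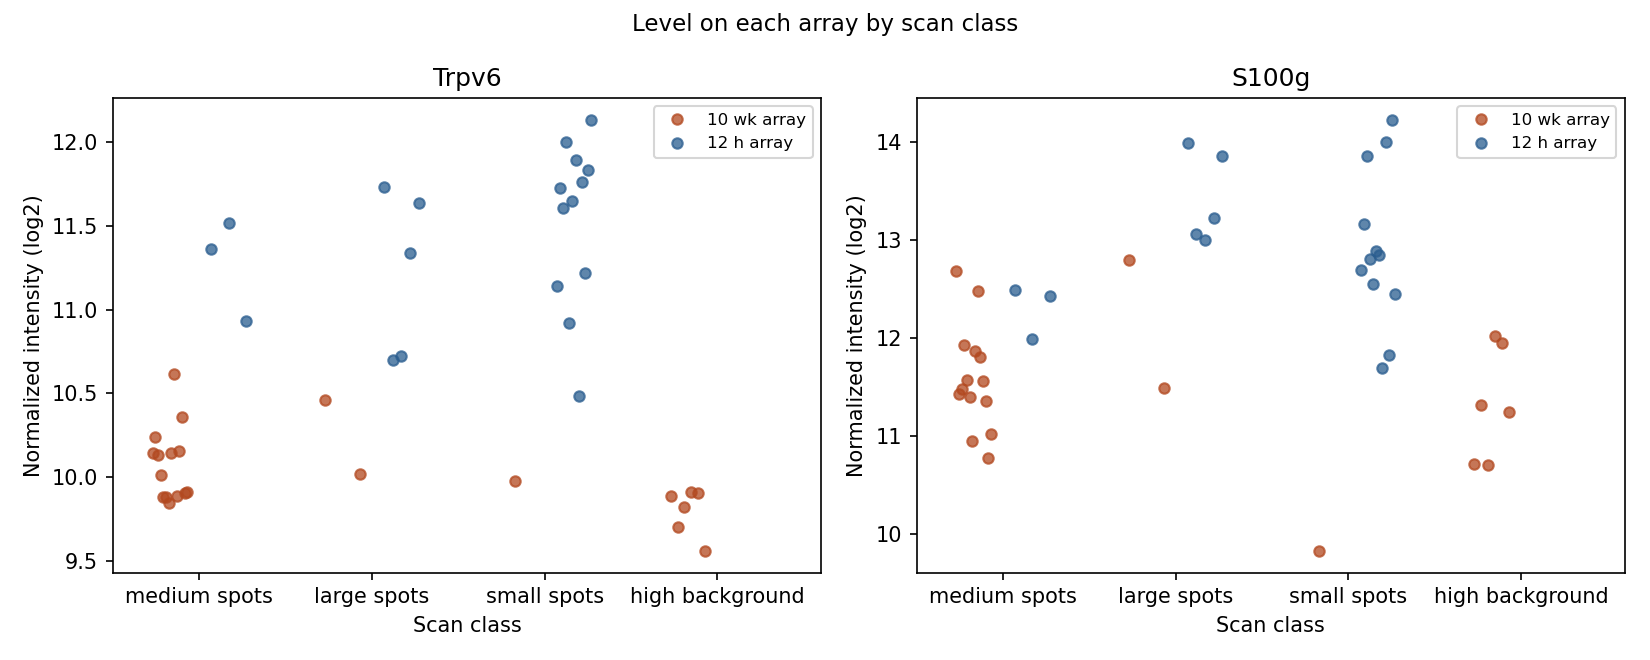
Level of Trpv6 (left) and S100g (right) on each of the 43 arrays by scan class, as log2 normalized intensity, with 10 wk arrays left of 12 h arrays. In the 3 classes that hold both times, Trpv6 is lower on every 10 wk array than on any 12 h array.

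The RNA level of the extrusion gene was lower at 10 wk, as were those of the entry and carriage genes. Calcium transport itself was not measured. Atp2b1, the plasma membrane calcium pump gene, fell by 0.75 (SE 0.15, 1.68-fold, limma adjusted p = 2.99e-04) on the log2 scale. In corn oil rats at 10 wk its level averaged 12.63 ± 0.58, against 13.22 ± 0.18 at 12 h. In fish oil rats it averaged 12.51 ± 0.72 at 10 wk, against 13.39 ± 0.24 at 12 h, and in olive oil rats 12.63 ± 0.34, against 13.39 ± 0.24. Every one of the 14 late rats was below the average of the early rats, and the 11 lowest rats of all 29 were late ones. By oil, the difference was -0.88 in fish oil (adjusted p = 0.0276), -0.76 in olive oil (adjusted p = 0.0396) and -0.60 in corn oil (adjusted p = 0.180), where 12.1%, 13.4% and 3.02% of all probes passed. The oil by time F test did not pass (adjusted p = 0.950). The 2 lowest late rats, at 11.51 and 11.63, are those with high-background arrays, where its level averaged 11.39. With scan class as a term the fall was -0.56 (adjusted p = 0.00160), and within medium, large and small spots the difference was -0.28, -0.54 and -1.18.

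Across the array 36.9% of probes changed between the times averaged over oils, 19.2% higher and 17.7% lower at 10 wk, and the counts below are read against these. The calcium transport list had 12 genes, of which 7 are on the array and 3 were tested, Atp2b1 and the pair described. Calb2, Atp2b4, Slc8a1 and Slc8a2 lay under the filter on dim probes. Calb2 encodes calretinin, Atp2b4 another plasma membrane pump, and Slc8a1 and Slc8a2 sodium-calcium exchangers. Atp2b4 lay at the floor of 6.46 in all 29 rats, Calb2 in 13 late and 15 early rats, and the exchangers averaged 6.65 to 6.89 at 10 wk and 6.69 to 7.002 at 12 h.

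Of 3 vitamin D genes tested, 2 fell and none rose. Vdr, the receptor, fell by 0.42 (SE 0.08, adjusted p = 1.43e-04), at 9.28 ± 0.25 at 10 wk against 9.70 ± 0.16 at 12 h, and 13 of 14 late rats lay below the early mean. Another Vdr probe fell by 0.74 (SE 0.18, adjusted p = 0.00291). With scan class as a term these were -0.28 (adjusted p = 0.0229) and -0.95 (adjusted p = 0.00603). Cyp27b1, which encodes the hydroxylase that makes the active hormone, fell by 0.29 (SE 0.09, adjusted p = 0.0135), with 7.73 ± 0.31 at 10 wk against 8.01 ± 0.14 at 12 h. Within medium, large and small spots the difference was -0.41, 0.01 and -0.25. It was -0.23 with scan class as a term (adjusted p = 0.0417) and -0.28 without the small-spot arrays, where the call was lost (adjusted p = 0.105). Pdia3, which encodes a protein disulfide isomerase also reported as a membrane receptor for the hormone, stood at 0.08 (adjusted p = 0.408) and 0.00 (adjusted p = 0.980) on its probes. The retinoid X receptor genes Rxrb and Rxrg were on the array but too dim to test.

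No comparison of oils passed for these partners. Of all pairs of oils and differences of time differences for Atp2b1, Vdr, Cyp27b1 and Pdia3, the lowest limma adjusted p was 0.0990. It belonged to the brighter Pdia3 probe in fish oil minus corn oil at 10 wk (-0.51, 95% interval -0.78 to -0.24). The dimmer Pdia3 probe stood there at -0.11 (-0.35 to 0.14, adjusted p = 0.831). The dimmer Vdr probe stood at -1.16 (-1.83 to -0.48, adjusted p = 0.145) in that comparison, while the brighter one did not show it, with 9.26 ± 0.10 in fish oil and 9.42 ± 0.32 in corn oil rats.

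Proteins reported to bind or regulate Trpv6 or its close relative Trpv5 changed in both directions, 3 higher and 6 lower of 13 tested. Rab11a, a small GTPase of recycling endosomes, fell by 0.23 (SE 0.04, adjusted p = 1.36e-04) and lay below the early mean in all 14 late rats. Nherf1, a PDZ scaffold of the apical membrane, fell by 0.36 (SE 0.07, adjusted p = 2.17e-04). Rab11b, the relative of Rab11a, fell by 0.27 (adjusted p = 0.00919), a call lost with scan class as a term (-0.35, adjusted p = 0.113). Wnk4, a kinase of ion transport, rose by 0.44 (SE 0.11, adjusted p = 0.00249), with 13 of 14 late rats above the early mean.

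Among calcium hormones and sensing 3 of 6 tested genes fell and none rose. Prlr, the prolactin receptor gene, showed the largest difference of all the partner genes named here, at 7.94 ± 0.47 at 10 wk against 9.00 ± 0.38 at 12 h, a fall of 1.07 (SE 0.14, 2.10-fold, adjusted p = 4.17e-06). It lay below the early mean in all 14 late rats and stood at -1.19 with scan class as a term. Casr, the extracellular calcium-sensing receptor gene, fell by 0.57 (SE 0.12, adjusted p = 6.28e-04), with 7.92 ± 0.33 at 10 wk against 8.49 ± 0.34 at 12 h. Esr2, an oestrogen receptor gene, fell by 0.31 (adjusted p = 0.00581), a call lost when scan class was a term (-0.18, adjusted p = 0.0845). Ghr, the growth hormone receptor gene, stood at -0.10 (adjusted p = 0.311), but at -0.30 with that term (adjusted p = 0.00285).

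Of 6 other TRP channel genes tested, 1 rose and 2 fell. Trpm7, a magnesium and calcium channel with a kinase domain, rose by 0.28 (adjusted p = 0.00441), which was lost when scan class was a term (0.21, adjusted p = 0.0814). Trpv1, the capsaicin receptor gene, fell by 0.57 (adjusted p = 0.00643) at low levels, 6.78 ± 0.25 at 10 wk against 7.37 ± 0.56 at 12 h, with 2 late rats at the floor. Pkd2, the polycystin-2 gene, fell by 0.33 (adjusted p = 0.00707), which was lost with scan class as a term (-0.18, adjusted p = 0.158), and Mcoln1, a lysosomal channel gene, stood at -0.15 (adjusted p = 0.208). Of 7 other S100 genes, 1 rose and 2 fell. S100a9, a calprotectin subunit of neutrophils, fell by 0.70 (SE 0.16, adjusted p = 0.00128), at 7.68 ± 0.26 at 10 wk against 8.38 ± 0.62 at 12 h. S100a1 fell by 0.25 (adjusted p = 0.00284) and S100a16 rose by 0.27 (adjusted p = 0.0180). The S100a1 call was lost with scan class as a term (-0.16, adjusted p = 0.0845), and the S100a16 call without the small-spot arrays. S100a10, a partner of annexin A2 that is reported to bring Trpv6 to the membrane, stood at -0.35 (adjusted p = 0.0821), but at -0.51 with that term (adjusted p = 0.0301).

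Of 10 tested genes of store and organelle calcium, 1 rose and 1 fell. Itpr3, an inositol trisphosphate receptor gene, rose by 0.23 (adjusted p = 0.00751) and lost its call without the large-spot arrays. Sdf4, a Golgi calcium-binding protein gene, fell by 0.17 (adjusted p = 0.0157), a call lost in the deposited values, with the first array of each rat and without the large-spot arrays (adjusted p-values of 0.0882 to 0.365). Atp2a3, a calcium pump of the endoplasmic reticulum, stood at 0.17 (adjusted p = 0.124), but at 0.34 with scan class as a term (adjusted p = 0.00129), and Rcn2, a reticulocalbin gene, at -0.29 (adjusted p = 0.183). Of 3 claudin and tight junction genes 1 fell, Cldn3, by 0.22 (adjusted p = 0.0248). Cldn3 encodes a claudin of the paracellular barrier, and it stood at -0.29 with that term (adjusted p = 0.0592). Its call was also lost without rat 234 or 236 and without the small-spot arrays, at adjusted p-values of 0.0546 to 0.0757. Tjp1 and Cldn7 stood at -0.06 and -0.03.

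Of 7 mineral transport genes, 1 rose and 2 fell. Tfrc, the transferrin receptor gene for iron uptake, rose by 0.46 (SE 0.09, adjusted p = 3.54e-04) and lay above the early mean in all 14 late rats. Slc39a4, a zinc importer gene, fell by 0.31 (adjusted p = 0.0225), and Slc40a1, the iron exporter gene, fell by 0.20 and 0.37 on its probes (adjusted p = 0.0314 and 0.00413). The call of its brighter probe was lost when any of 6 rats was left out (106, 132, 206, 236, 305 or 334), and both probes and Slc39a4 lost theirs without the small-spot arrays. Heph, a ferroxidase gene, stood at -0.21 (adjusted p = 0.191).

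Genes of the cellular calcium response gave 2 rises and 1 fall of 12 tested. Camk2b, a calmodulin-dependent kinase gene, rose by 0.44 (SE 0.07, adjusted p = 2.08e-05), and all 14 late rats lay above the early mean. Calm3, a calmodulin gene, rose by 0.20 on its brighter probe (adjusted p = 0.0203), and stood at 0.12 (adjusted p = 0.183) on the dimmer one. With scan class as a term the brighter probe stood at 0.20 without a call (adjusted p = 0.151), and without the small-spot arrays at 0.05 (adjusted p = 0.583). Capn2, a calpain gene, fell by 0.39 (adjusted p = 8.05e-04), and stood at -0.36 with that term (adjusted p = 0.0568), and Capn1 stood at -0.10. Of 7 intestinal transcription factors 2 fell and none rose. Klf4 fell by 0.46 (SE 0.08) and Klf5 by 0.48 (SE 0.10, adjusted p = 4.35e-04), each with all 14 late rats below the early mean. Klf4 is high in differentiated surface cells and Klf5 in dividing crypt cells. Hnf4a, a regulator of enterocyte genes, stood at -0.39 (adjusted p = 0.0546) and passed with scan class as a term (-0.68, adjusted p = 0.0377), and Hif1a, the hypoxia factor gene, at 0.06.

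Over all 11 lists 72 genes besides Trpv6 and S100g were tested, of 202 listed and 94 on the array. Of these 8 rose, 23 fell and 41 did not pass, with a median difference of -0.10 against 0.00 over all probes. The authors' deposited values gave a time difference averaged over oils for 46 of these genes. Of them 4 rose and 6 fell, against 7 and 13 of the same 46 in the values used here. Over all probes, 761 rose and 282 fell of 5562 tested in the deposited values. In the values used here, 1225 rose and 1128 fell of 6381. The other 26 genes have no such difference in the deposited values.

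**Figure D5:**
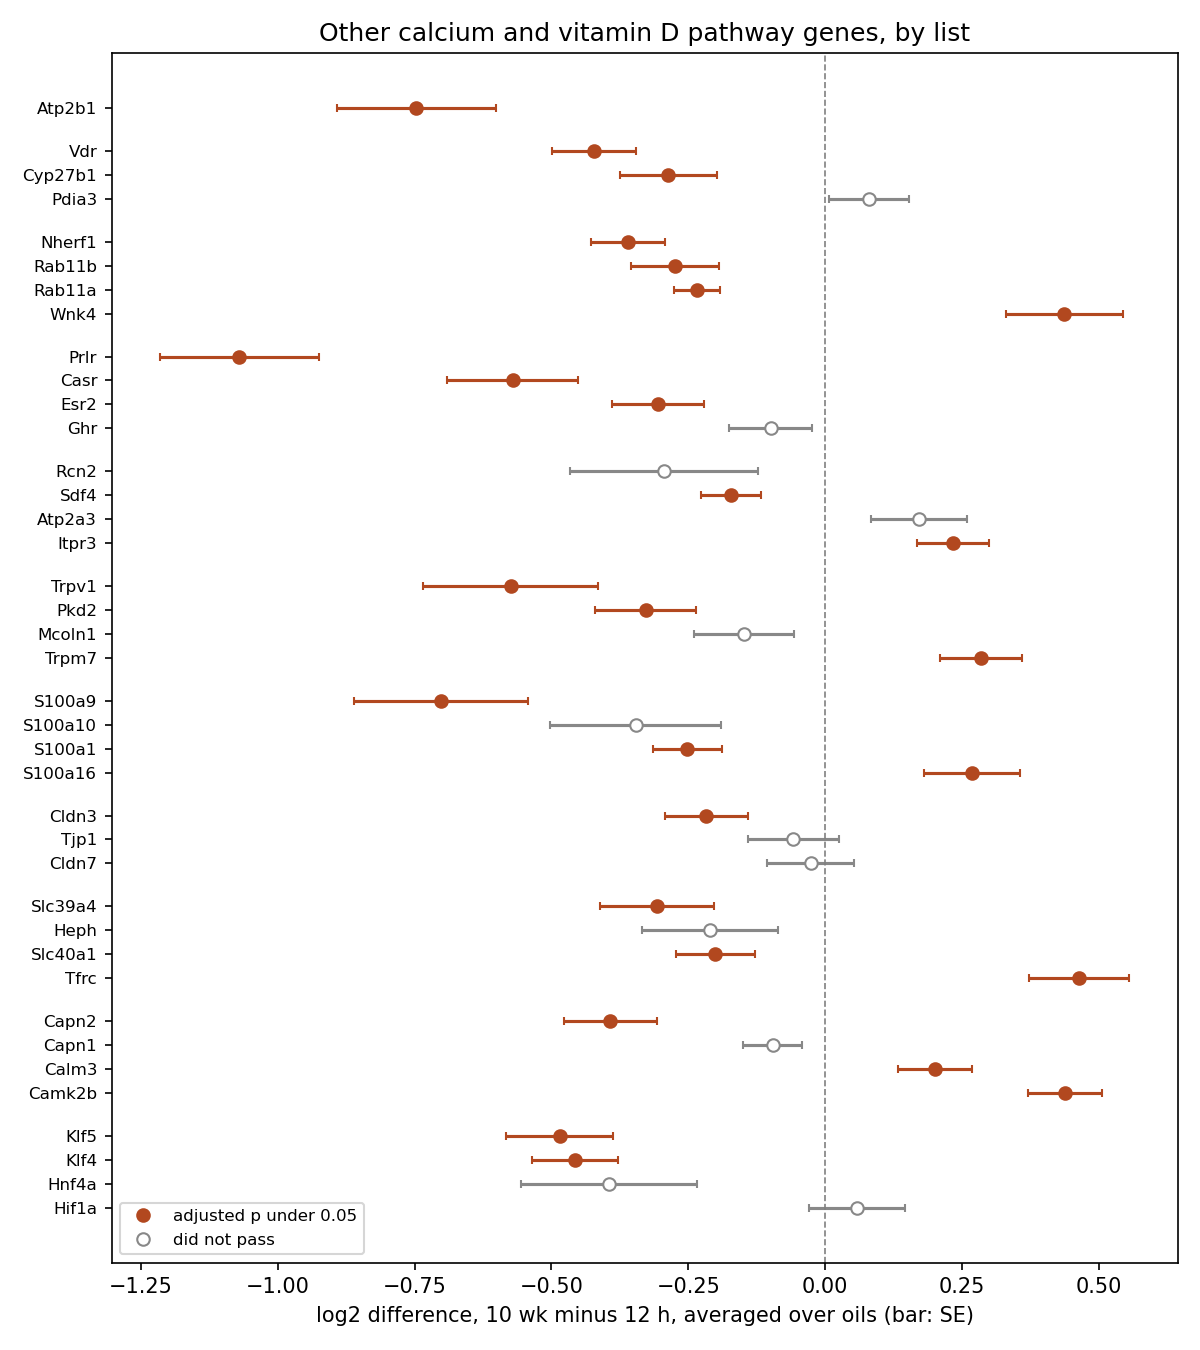
Log2 difference, 10 wk minus 12 h averaged over oils, with its SE, for the named genes other than Trpv6 and S100g. Genes are grouped by list, from transport at the top to transcription factors at the bottom. The order is that of the text, except that store and organelle calcium stands above the TRP channels and the S100 family. Filled points passed the test. Atp2b1, Prlr, S100a9, Casr and Trpv1 lie below -0.50, and Tfrc, Camk2b and Wnk4 are the highest.

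Markers of the cells in the mucosa were measured beside these. Of 8 surface colonocyte markers 3 fell, 1 rose and 4 did not pass, and their summed linear level was 57755 to 77908 at 10 wk and 63809 to 76905 at 12 h. Cdhr5 fell by 0.29, Ceacam1 by 0.33 and Slc9a2 by 0.31, and Hsd11b2 rose by 0.26. The dimmer probes of Slc9a2 and Hsd11b2 did not pass. Tff3 of goblet cells stood at -0.21 on its brighter probe (limma adjusted p = 0.0627). On its dimmer probe it fell by 0.27 (adjusted p = 0.0189). All of these, and Car2, Vil1, Slc9a3 and Aqp8 of the surface list, which did not pass, were above noise on 100% of arrays. So were Fabp1, Fabp2 and Apoa1 of the small intestinal enterocyte list, of which 1 of 4 tested markers fell (Apoa1, by 0.77, adjusted p = 2.93e-04) and none rose, with sums of 12277 to 31594 at 10 wk and 10165 to 33511 at 12 h. Of 5 crypt and cycling markers 4 rose, with sums of 3587 to 6183 at 10 wk and 2518 to 5380 at 12 h. Of 4 smooth muscle markers 3 rose, with sums of 882 to 2116 at 10 wk and 663 to 1555 at 12 h. In T and NK cell markers 1 of 2 tested fell, with sums of 268 to 543 at 10 wk and 340 to 757 at 12 h. The part of these cell types in the Trpv6 and S100g differences was not tested.

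Over the 29 rats the genes most like Trpv6 in level were Chn2 (Pearson's r 0.90), Ift172 (0.89), Gzmb (0.88), Thra (0.86), Pef1 (0.85) and Cd86 (0.84), out of 4243 genes measured in all rats. S100g came 20th at 0.80. Those most like S100g were Ifngr2 (0.83), Trpv6 (0.80), Gch1 (0.76), Cdkn2b (0.76), Cib2 (0.76) and Pdcl3 (0.76). All of these shared the time difference, being lower at 10 wk. With the mean of each group taken out, the nearest to Trpv6 were Cidea (0.83), Mapk13 (0.80), Fgl2 (0.80), Plat (0.79), Abhd6 (0.79) and Gnai1 (0.78), with S100g 153rd at 0.56. The nearest to S100g were then Atp6v1f (0.78), Btbd3 (0.75), Gch1 (0.74), Csgalnact2 (0.72), Ifngr2 (0.71) and Uba3 (0.69), with Trpv6 73rd. Scan class and background also differed between rats, and the part of the arrays in these correlations was not tested.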

How the data were processed

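CodeLink arrays of 43 hybridisations from 29 rats were used, and repeat arrays were averaged to 1 value per rat. The deposited array files hold spot and background intensity, which were used, and spot area in pixels, an image measurement used to sort arrays. The authors' scaling method is not stated. Their deposited normalized intensity served as an alternative. In their background-subtracted intensity a constant stands in for 1959 probes on corn oil arrays (S100g among them), 1548 on fish oil arrays and 1225 on olive oil arrays. The alternative was run without these replaced probes. After normexp correction (offset 50) and quantile normalization, values under the 10th percentile were raised to that floor (6.46 as log2) before taking logs. Missing spots numbered 9 to 119 per array, median signal above background was 163 to 685, and 84.8% to 99.8% of spots were above noise. The number of rats limits the precision. Tests covered the 6381 probes (75.5%) that exceeded the 30th percentile in 4 or more rats.

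A single model of the 6 groups was fitted with limma 3.58.1 in R 4.3.3 (lmFit, eBayes), with 23 residual degrees of freedom, and adjusted p-values are Benjamini-Hochberg over all tested probes at a threshold of 0.05. Correlations used 100000 permutations, two-sided (scipy 1.17.1). Each rat is a separate animal, and p-values measure the spread between rats. Where a gene has several probes, the brightest stands for it in list counts. The members, gene lists and tests were chosen with earlier results of these data known. Named are all probes of Trpv6 and S100g, all tested genes of the transport and vitamin D lists, up to 4 genes with the smallest adjusted p in each other list, and the 6 genes most like each member. Alternatives were background subtraction, median scaling, the deposited values, no floor, no filter, the first array of each rat, all arrays with the rat as a random block, array weights, robust moderation, scan class as a term, averaging a gene's probes and leaving out each rat. Leaving out a scan class was added after seeing the data.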

Additional observations from a re-analysis of the deposited data

Results flagged for a closer look

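In 5 of 48 sets of 1 probe in 1 group, the highest or lowest rat stood apart from the others by Dixon's test at 95%, which chance does in about 1 set of 20. For Trpv6 in late fish oil rats, rat 232 stood at 10.01, above 9.86 to 9.88 in the other 3, a gap that is small beside the time difference. Atp2b1 in late corn oil rats was lowest in rat 136, at 11.63. Cyp27b1 in late fish oil rats was highest in rat 236, at 8.23. Rats 136 and 236 hold the high-background arrays, on which Atp2b1 averaged 11.39 and Cyp27b1 8.32, and the part of background in these values was not tested. Vdr in late olive oil rats was lowest in rat 335, at 8.75, and the dimmer Pdia3 probe in early corn oil rats was lowest in rat 102, at 9.42.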

How the results depend on the processing

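The time differences of Trpv6 and S100g kept their sign under every alternative that gave a value, with averaged values of -1.53 to -1.25 and -1.48 to -1.23, and -1.44 to -1.31 and -1.40 to -1.21 with 1 rat left out. None of the 18 oil and oil by time contrasts of both genes passed in any of 768 values (lowest adjusted p 0.216). Many of those differences lie near 0 and changed sign, none past the threshold, and the cause was not tested. In the deposited values Trpv6 in olive oil minus corn oil stood at -0.18 at 10 wk and -0.011 at 12 h. There S100g has no corn oil value, 4 of 46 pathway genes with a value rose and 6 fell, and of 5562 probes tested 1043 were called (761 higher, 282 lower, median 0.08), against 2353 (1225 higher, 1128 lower) in the values reported. With the first array of each rat, Trpv6 in olive oil minus corn oil at 10 wk was -0.033 and S100g in fish oil minus corn oil 0.048. For Trpv6, the time difference in olive oil minus that in corn oil was 0.026 with the rat as a random block, 0.087 with array weights and 0.24 without the small-spot arrays. Array weights gave Trpv6 -0.076 (olive oil minus corn oil) at 10 wk, and -0.16 (olive oil minus corn oil) and 0.14 (fish oil minus olive oil) at 12 h. The 10 wk value was -0.018 with scan class as a term and -0.0053 without the high-background arrays. Without the large-spot arrays Trpv6 had a time difference of -1.76 in olive oil rats and 0.30 for fish oil minus olive oil in that difference. S100g then stood at 0.052 (10 wk) and -0.030 (12 h) for fish oil minus corn oil, at 0.045 for olive oil minus corn oil at 10 wk and at 0.082 for the time difference in fish oil minus that in corn oil. Without the small-spot arrays Trpv6 stood at -0.21 (olive oil minus corn oil) and 0.10 (fish oil minus olive oil) at 12 h.

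With each rat left out in turn, Trpv6 at 10 wk ranged from -0.087 to 0.095 for olive oil minus corn oil, and at 12 h from -0.23 to 0.12 for fish oil minus corn oil, -0.077 to 0.28 for olive oil minus corn oil and -0.38 to 0.043 for fish oil minus olive oil. Its time difference in olive oil minus that in corn oil ranged from -0.26 to 0.098, and in fish oil minus that in olive oil from -0.32 to 0.10. S100g at 10 wk ranged from -0.49 to 0.052 for fish oil minus corn oil, -0.52 to 0.022 for olive oil minus corn oil and -0.14 to 0.25 for fish oil minus olive oil, and at 12 h from -0.21 to 0.37 for fish oil minus corn oil. Its 12 h differences ranged from 0.40 to 0.84 for olive oil minus corn oil and from -0.82 to -0.25 for fish oil minus olive oil. Its time difference in fish oil minus that in corn oil ranged from -0.57 to 0.013, in olive oil minus that in corn oil from -1.13 to -0.59, and in fish oil minus that in olive oil from 0.28 to 0.85. For Trpv6, fish oil minus olive oil at 10 wk ranged from -0.34 to -0.17, and the time difference in fish oil minus that in corn oil from -0.37 to -0.020. The pathway counts ranged from 7 to 8 genes that rose and 20 to 25 that fell.

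Among partners without a call, Tjp1 stood at 0.00020 in the deposited values, 0.058 with array weights, 0.22 with scan class as a term, 0.024 without the high-background and 0.15 without the small-spot arrays. Cldn7 stood at 0.020, 0.078 and 0.076 with array weights, with scan class as a term and without the small-spot arrays, and at -0.061 to 0.035 with 1 rat left out. The brighter Pdia3 probe stood at -0.022 with scan class as a term and -0.059 without the small-spot arrays, the dimmer at -0.042 with array weights and -0.027 to 0.024 with 1 rat left out. Hif1a stood at -0.15 with scan class as a term. Besides the losses given with each gene, the deposited values lost the calls of Calm3, Rab11b, S100a1, S100a16, Sdf4, Slc39a4 and Slc40a1. Sdf4 lost its call with the first array of each rat and without the large-spot arrays, as did Calm3 without the large-spot arrays and under the random block of rats. Without the small-spot arrays Calm3, Cldn3, Rab11b and Trpm7 did not pass. Calls were also gained beyond those given with each gene. Heph passed with array weights or without rat 134, and S100a10 with array weights or without rat 134 or 306. Hnf4a passed under the random block, without the small-spot arrays or without rat 201, 232, 233 or 302. Atp2a3 passed under the random block, Atp2a3 and Mcoln1 without the large-spot arrays, Ghr without the small-spot arrays and the dimmer Calm3 probe with array weights.

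No paired analysis was possible because the replicate numbers in the titles mark repeat arrays of 1 rat, and no rats of different groups share a number. Time and scan class are nearly the same split of the arrays. With 4 or 5 rats per group, differences between oils that lie within the intervals given are not excluded.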
